A study of Mus musculus with 8 samples.

Results

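RNA sequencing libraries labelled 12h were compared with those labelled 6h, to describe which transcripts started to change, went on changing or turned back after the first 6 h of a KLF4 time course. The members were chosen by their time label alone and were 4 of the 8 libraries in the series, 2 at 6h and 2 at 12h, and the libraries at 0h and 24h (2 each) served as reference. All 8 came from mouse acute myeloid leukaemia cells driven by the MLL-AF9 fusion oncogene and carrying a TetO-Klf4 transgene, which makes the transcription factor KLF4 when doxycycline is given. GFP-positive cells had been sorted from leukaemic mice. The labels give bone marrow as the tissue, C57BL/7 as the strain and leukemia cells as the cell type in every group, so the groups differed in the time label only: 0h, 6h, 12h and 24h. What event the hours count from is not stated in the labels, nor whether replicates 1 and 2 came from separate mice, and no library of cells lacking the transgene was analysed here. The p-values therefore measure only how far these libraries lie apart, which may reflect technical spread. An effect of KLF4 cannot be told apart from one of doxycycline itself, of handling or of elapsed time.

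KLF4 is a zinc finger transcription factor that binds GC-rich and CACCC-type DNA and is linked to monocytic differentiation and to growth arrest in blood cells. Immediate early genes such as Egr1, Fos and Jun encode transcription factors that are transcribed within minutes of a signal, and their transcripts are short-lived. Feedback genes of the early response include Dusp1, a phosphatase of MAP kinases, and Zfp36, which promotes decay of AU-rich transcripts. Other programmes that cells adjust over hours include cholesterol synthesis, driven by SREBP2, amino acid synthesis and transport, driven by ATF4, and the making of ribosomes, driven in part by MYC.

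The 6h libraries held 20944589 and 25706154 gene counts and the 12h libraries 23489556 and 23416697, and the series ranged from 20394546 to 26041347. Levels are given in CPM, counts relative to each library's total after TMM scaling, which adjusts the totals for differences in composition. For a gene with 0 counts the upper limit, taken from 3 counts of the unscaled total, was 0.117 to 0.143 CPM in the compared libraries and covers counting error only. No library was a copy of another: the chi-square between replicates, per degree of freedom, was 3.79 at 6h and 1.94 at 12h, above the value of 1 that sampling noise alone gives. Markers of myeloid leukaemia cells (12 genes, among them Ptprc, Spi1, Cebpa, Hoxa9, Meis1 and Myb) summed to 3280 and 3380 CPM at 6h and to 3410 CPM in both 12h libraries. All 17 markers of T and NK cells stayed under 1 CPM in every library. Of 14 markers of B and plasma cells 4 passed the filter on low counts and summed to 20.1 and 22.1 CPM at 6h and 20.9 and 21.4 CPM at 12h. Most of this was Cd79b (8.2 to 9.4 CPM) and Ighm (7.98 to 9.64 CPM), neither of which was called, while Cd79a, from 0.477 and 0.315 CPM to 0.799 and 1 CPM, was called higher (adjusted p = 0.045) but not when any library was left out, and Ms4a1 and Pax5 were at 0 in all 8 libraries. Of 16 markers of erythroid cells and platelets 6 passed the filter (14.3 to 15 CPM in all) and 1, Gp1ba, rose, and of 16 of endothelium, stroma and bone 3 passed (47.4 to 54.1 CPM) and 1, Bglap, was called higher from 1 count at 6h, a call lost without 6h replicate 2 or 12h replicate 1. Their part in the results was not tested. The share of fragments that the authors' counting assigned to no gene was 6.21% ± 0.56 (SD, n = 2) at 6h and 8.63% ± 0.45 at 12h, and its part was not tested either.

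Klf4 itself was measured first. It stood at 2.71 and 4.42 CPM in the 0h libraries, 152 and 151 CPM at 6h, 114 and 111 CPM at 12h and 76.9 and 78.8 CPM at 24h. The transcript therefore rose before 6h and was falling by 12h, with no overlap between the groups (log2 fold change 12h against 6h -0.43 ± 0.05 SE, adjusted p = 8.1e-08). At 12h it was still well above 0h, by 4.96 on the log2 scale. The counts do not separate reads of the transgene from those of the endogenous gene.

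From 6h to 12h, 13 of 22 genes in a list of EGR, NR4A and IER early genes rose, 10 of them as a start, with Egr1 (38-fold) and Zfp36 among them, and Klf2 and Dusp1 from other lists also started upward. Of 43 ATF4 targets and regulators 26, such as Chac1 and Cth, had risen by 6h and rose further. Of 25 genes of cholesterol synthesis 16, such as Fdft1 and Mvd, had fallen by 6h and rose again. Of 59 genes of ribosome biogenesis 39, among them Ncl, started to fall, and of 62 genes of mitosis 27, among them Foxm1, started to rise. Over all 14263 genes tested, 10.9% were called higher at 12h than at 6h and 9.79% lower. Among all of them, 1016 started upward, 1037 started downward, 466 had risen and rose further, and 69 had fallen and rose again.

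Of 14263 genes tested, 2947 (20.7%) were called between 12h and 6h at an adjusted p under 0.05, 1551 of them higher (10.9% of those tested) and 1396 lower (9.79%). These shares are the background for the counts in gene lists below. Most steps were small. The median log2 fold change was 0.34 among the genes that rose and -0.21 among those that fell, against 0.001 over all genes tested. In 2939 of the 2947 the libraries of the 2 times did not overlap. Genes called at a small p mostly separate by construction, so this count adds no support to the calls. The share without overlap among all tested genes is not given here. With 2 libraries a group separation is a weak criterion: an exact permutation test of 2 against 2 cannot go below p = 0.333. A change of at least 2-fold was seen in 333 genes that rose and 30 that fell. Of those 333, 273 were under 1 CPM at 6h and only 13 averaged 3 or more in log2 CPM. Protein-coding genes made up 53.4% of the 333 and 84.7% of all tested genes. The annotation classed 57 of the 333 as unproven transcripts (TEC), 35 as antisense and 14 as lincRNA. The strand setting of the counting is not given, so reads of an antisense or overlapping gene cannot be told apart from those of its partner. The share of fragments counted to no gene rose over the same step, as given above. Without 12h replicate 2 the number called was 1296 and without 12h replicate 1 it was 1853. Under a GC and length correction that also centres the mean gene, 29.3% of 4040 called genes were higher, against 52.6% here.

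Genes were then sorted by their first step, 6h against 0h, in which 1389 genes had risen (9.74%) and 1224 had fallen (8.58%). A gene called at 12h was said to start if it was not called at 6h, to continue if it had moved the same way, and to return if it had moved the other way. Starts were the largest class: 1016 genes started upward, 65.5% of those higher at 12h, and 1037 started downward, 74.3% of those lower. Continuations numbered 466 upward and 315 downward, and returns 69 upward after a fall and 44 downward after a rise. The upward continuations had a median step of 0.44 before 6h and 0.32 after it on the log2 scale. Seen from the first step, 33.5% of the genes that had risen by 6h rose again and 3.17% fell back, while 879 were not called. Of those that had fallen, 25.7% fell further and 5.64% returned, and 840 were not called. Both comparisons use the same 6h libraries, so a chance deviation of these favours returns and works against continuations. The classes also move with the 0h libraries: without 0h replicate 2, 122 genes continued downward, 44 returned upward and 21 returned downward, and without 0h replicate 1 these counts were 195, 45 and 28.

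**Figure D1:**
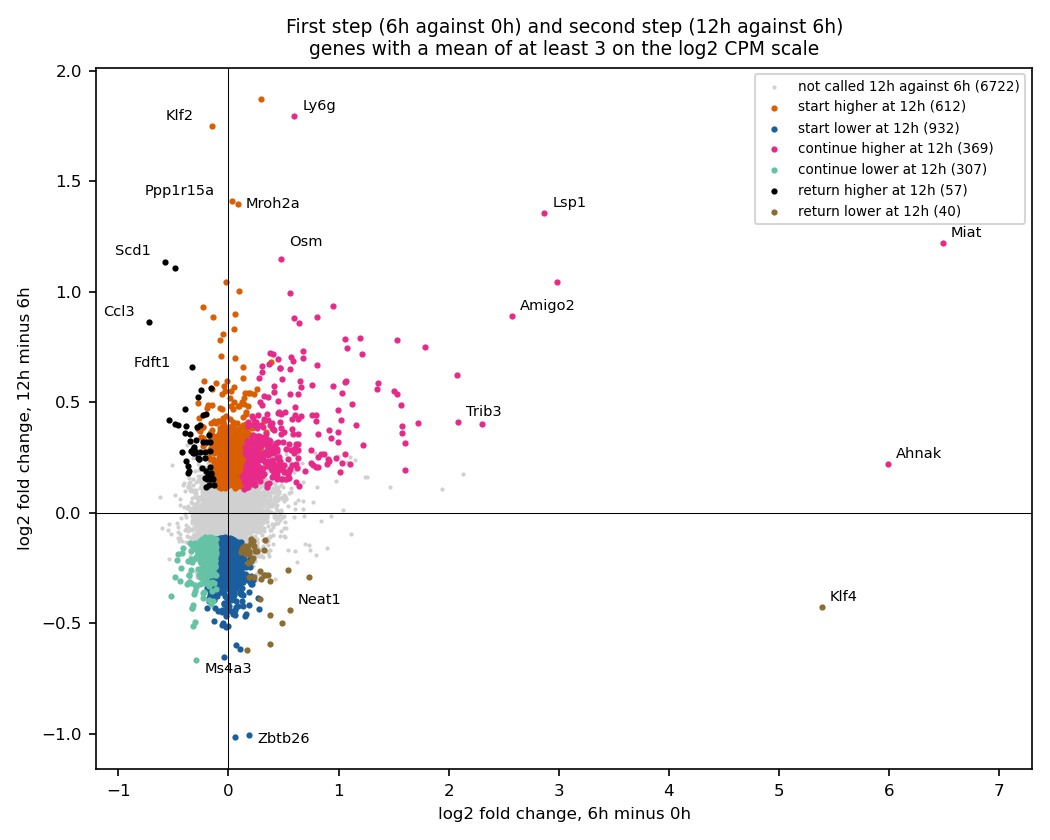
Log2 fold change of the first step, 6h minus 0h (x axis), against that of the second, 12h minus 6h (y axis), for the 9039 tested genes that averaged 3 or more in log2 CPM; each point is a gene, coloured by class, with the number of genes in the plot in the legend. Klf4 lies far right and below the line at 0, Lsp1 and Miat rose in both steps, Klf2 and Ppp1r15a were called in the second step and not in the first, and Egr1 and Jun are not plotted because their mean lies below the limit.

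The comparison of 24h with 0h holds none of the 6h or 12h libraries. In it 3721 genes were called higher (26.1%) and 3536 lower (24.8%). Of the 1551 genes that rose from 6h to 12h, 1281 were among those higher at 24h (82.6% of the former and 34.4% of the latter), and 23 were lower. Of the 1396 that fell, 1099 were lower at 24h (78.7% and 31.1%) and 16 were higher. Of the 69 upward returns, 52 were not called against 0h at 12h, 13 were above it and 4 still below. Of the 44 downward returns, 36 were not called, 7 were above and 1 was below.

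Among starts above the expression limit for naming genes, Egr1 rose most. This zinc finger factor was at 0.553 and 0.368 CPM at 0h and 0.286 and 0.59 CPM at 6h, the latter resting on 6 and 15 counts. At 12h it stood at 16.2 and 18.5 CPM, a 38-fold rise (log2 fold change 5.25 ± 0.20 SE, adjusted p = 6.2e-21), and it was at 22.1 and 24.9 CPM at 24h. The 0h and 6h libraries overlapped, and both 12h libraries lay far above them. Jun, the main partner in AP-1 dimers, had already risen by 6h and went on from 3.15 and 2.52 CPM to 20.3 and 21.5 CPM (7.44-fold, adjusted p = 2.3e-19). Fosb, another AP-1 subunit, was at 0.286 and 0.315 CPM at 6h and 4.67 and 5.01 CPM at 12h (log2 fold change 3.98 ± 0.30, adjusted p = 2e-12). Fos did something else: it fell from 1.16 and 1.43 CPM at 0h to 0.429 and 0.551 CPM at 6h, and then rose to 2.69 and 2.76 CPM at 12h, above where it began. Jund, more abundant, took 2 small steps up, from 39.8 and 43 CPM at 6h to 49.6 and 53.7 CPM at 12h.

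**Figure D2:**
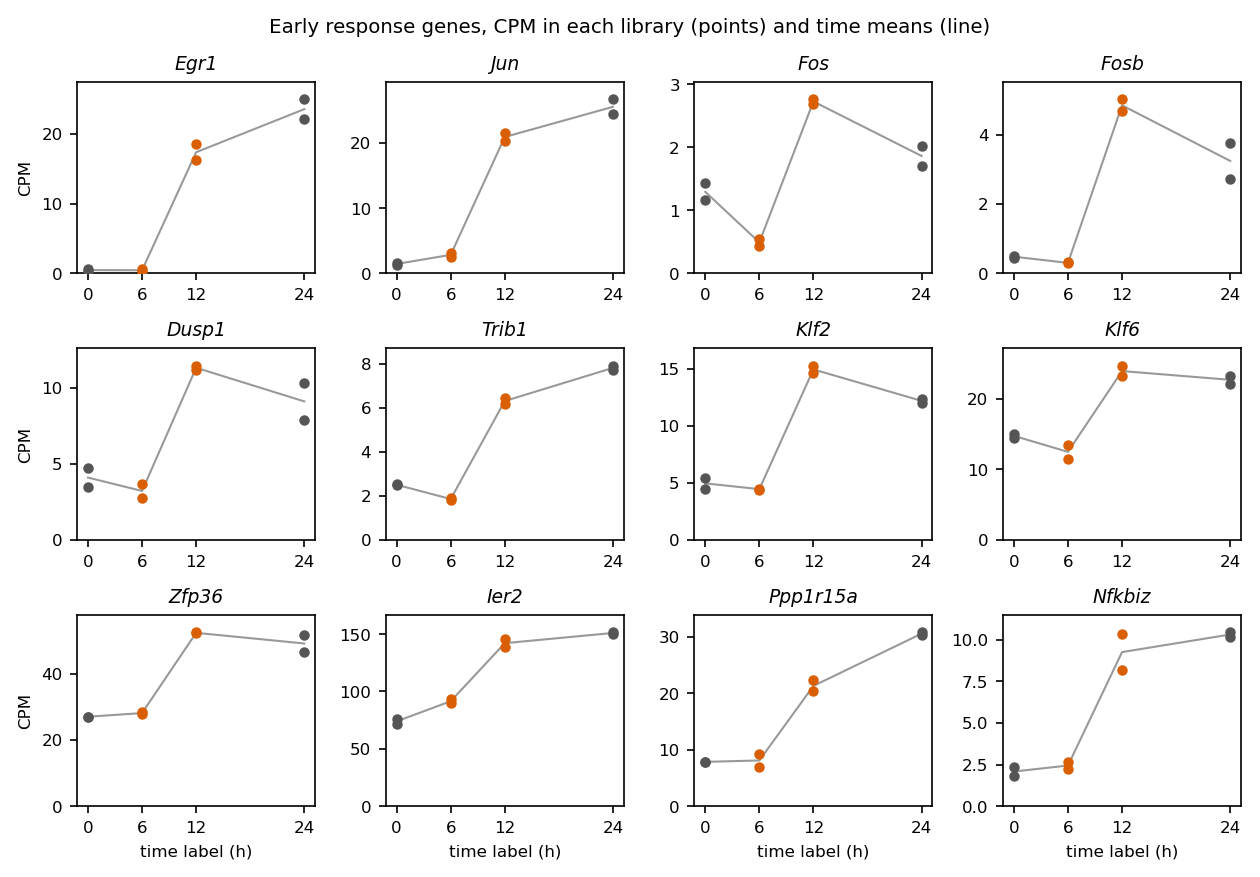
Expression of 12 early response genes in CPM (y axis, from 0) by time label in hours (x axis); points are single libraries, orange at 6h and 12h and grey at 0h and 24h, and the line joins the time means. In each panel both 12h libraries lie above both 6h libraries, and Fos dips at 6h before it rises.

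Of 12 tested AP-1 genes 6 rose from 6h to 12h and none fell, with a median log2 fold change of 0.18; 4 of the 6 were continuations, and Fosb was the start and Fos the return. In the broader list of EGR, NR4A and IER early genes 13 of 22 rose and 1 fell (median 0.30), and 10 of the 13 were starts. Zfp36 was not called between 0h (27 and 26.9 CPM) and 6h (28.5 and 27.7 CPM) and then stood at 52.1 and 52.5 CPM (1.86-fold, adjusted p = 5.2e-13). Trib1, a pseudokinase that directs degradation of C/EBP-alpha, went from 1.81 and 1.89 CPM at 6h to 6.44 and 6.18 CPM at 12h. Ier2 continued, from 89.7 and 93.2 CPM to 145 and 139 CPM. Smaller rises came in Plk3 (0.88 ± 0.13 on the log2 scale), Ier3 (0.88 ± 0.12), Csrnp1 (0.66 ± 0.14), Btg1 (0.60 ± 0.07) and the nuclear receptor Nr4a1 (0.60 ± 0.13). The member that fell was Gadd45b, a stress gene, by 0.26 after a first fall by 0.34, a call lost in DESeq2 and without 6h replicate 2 or either 12h library.

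Among 14 genes that feed back on ERK signalling, 3 rose, 1 fell and 10 were not called; 3 each way were called without 6h replicate 2 and under the GC and length correction that centres the mean gene. Dusp1 went from 2.72 and 3.7 CPM at 6h to 11.2 and 11.4 CPM at 12h (3.48-fold, adjusted p = 8.8e-11), after 4.72 and 3.45 CPM at 0h. Spred3, an inhibitor of the RAS pathway, rose by 0.87 ± 0.18 and the phosphatase Dusp2 by 0.42 ± 0.09 on the log2 scale. Etv5, an ETS factor, fell by 0.62, but its 6h libraries stood apart at 10.7 and 7.2 CPM, and the call was lost without 6h replicate 1. In a list of 26 NF-kB targets, chemokines and cytokines 5 rose (Nfkbiz, Rel, Ccl3, Ptgs2 and Cxcl2) and 4 fell (Tnfsf14, Ccl6, Nfkbib and Icam1); under the same correction 5 rose and 6 fell. Nfkbiz, an atypical IkB protein, rose from 2.24 and 2.64 CPM to 8.2 and 10.3 CPM, and the NF-kB subunit gene Rel by 0.39 ± 0.08. Ptgs2, the inducible cyclooxygenase, was called from very few counts at 6h (0.0954 and 0.0393 CPM, against 1.3 and 0.668 CPM at 12h), so its size, like that of Cxcl2, is not given as a fold.

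Promoters of 3 of the rising genes are shown, chosen because they hold letters of motifs that were searched for. They are the 250 bases before the RefSeq start, 5' to 3' on the gene's strand, build GRCm38.p6: Zfp36 at chr7:28379229-28379478, minus strand, Dusp1 at chr17:26508473-26508722, minus strand, and Ppp1r15a at chr7:45526269-45526518, minus strand. Capitals mark matches on either strand to a KLF-type site (GGGTGGGG or GGGCGTGG), a CRE (TGACGTCA), an E-box (CACGTG) or a CArG box. In Zfp36 a KLF-type match starts 76 bases and a CArG box 58 bases before the start. Dusp1 holds GGGTGGGG or its reverse complement at 4 places, 3 of which overlap, with a CRE at 143 and an E-box at 126 bases. Ppp1r15a has a CRE at 12 bases. Over windows of 300 bases (250 before and 50 after the start) of the 10087 tested genes with a sequence, GGGTGGGG was found in 12.4%, GGGCGTGG in 10.4%, the CRE in 3.23% and the CArG box in 1.24%. Among upward starts (681 with a sequence) the shares were 14.7%, 11.6%, 2.79% and 1.76%, among upward continuations (369) they were 19.2%, 13.6%, 1.63% and 1.36%, and among downward continuations (255) 10.2%, 7.84%, 2.75% and 3.53%, in the same order. Among downward starts (838) they were 10.7%, 9.55%, 4.18% and 0.716%. An AP-1 site (TGANTCA) was found in 4.9% of all tested promoters. It was in 4.7% of upward starts, 5.69% of upward continuations, 4.53% of downward starts and 5.88% of downward continuations. For the CACCC box (CCACACCC) these 5 shares were 4.1%, 4.7%, 5.96%, 2.51% and 4.71%. A match describes letters, not binding.
Zfp36: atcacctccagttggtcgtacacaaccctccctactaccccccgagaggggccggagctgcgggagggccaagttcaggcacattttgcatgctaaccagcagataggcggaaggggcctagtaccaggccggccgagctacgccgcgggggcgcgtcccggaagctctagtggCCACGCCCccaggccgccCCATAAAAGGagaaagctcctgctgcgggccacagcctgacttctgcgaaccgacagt
Dusp1: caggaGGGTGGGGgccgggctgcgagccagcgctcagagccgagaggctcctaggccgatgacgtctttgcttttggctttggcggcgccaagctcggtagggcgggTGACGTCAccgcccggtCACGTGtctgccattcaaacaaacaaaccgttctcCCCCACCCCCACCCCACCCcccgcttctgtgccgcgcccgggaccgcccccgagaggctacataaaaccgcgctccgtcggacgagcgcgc
Ppp1r15a: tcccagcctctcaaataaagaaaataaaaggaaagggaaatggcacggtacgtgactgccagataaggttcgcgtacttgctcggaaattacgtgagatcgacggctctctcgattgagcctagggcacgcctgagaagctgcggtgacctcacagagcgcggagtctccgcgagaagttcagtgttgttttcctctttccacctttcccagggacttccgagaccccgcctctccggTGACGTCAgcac

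Relatives of Klf4 split by the step in which they moved. Of 16 tested genes of the KLF and SP family other than Klf4, 5 rose from 6h to 12h and none fell (median 0.14; 3 rose without 6h replicate 2), whereas 8 had risen by 6h. Klf2 was at 5.43 and 4.47 CPM at 0h and 4.39 and 4.49 CPM at 6h, and then at 15.3 and 14.6 CPM at 12h (3.36-fold, adjusted p = 2.3e-13). Klf6 followed the same course, from 11.4 and 13.4 CPM to 24.6 and 23.1 CPM (1.91-fold). Both 12h libraries of each gene lay above all 0h and 6h libraries. Klf3, a repressor, had made most of its rise by 6h (9.9 and 10.3 CPM to 52.1 and 47.7 CPM) and added a little by 12h (66.5 and 65.2 CPM). Klf13 also continued, by 0.21 ± 0.05 on the log2 scale, although this call was lost without 6h replicate 2 or 12h replicate 2. Sp3 rose by 0.14 ± 0.05.

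The genes of the integrated stress response mostly continued. Of 43 tested ATF4 targets and regulators, 40 had risen by 6h, and 28 rose again from 6h to 12h with none falling (median 0.21, against 0.44 in the first step; 26 were continuations). Chac1, a glutathione-degrading enzyme, was at 9.1 and 9.58 CPM at 0h, 19 and 17.3 CPM at 6h and 35.4 and 33.8 CPM at 12h, with log2 steps of 0.95 and 0.94 (adjusted p = 5e-12 for the second). Cth, which makes cysteine from cystathionine, went from 13.8 and 15.9 CPM to 26.1 and 25.6 CPM and reached 66.9 and 68.8 CPM at 24h. Trib3, a pseudokinase target of the pathway, had made most of its rise before 6h (2.08 on the log2 scale) and added 0.41 ± 0.06. Pck2, the mitochondrial PEPCK, rose from 147 and 160 CPM to 208 and 202 CPM. Atf4 itself rose by 0.47 and then 0.15. Psph and Ppp1r15a were the members that started after 6h. Psph, the last enzyme of serine synthesis, rose by 0.52 ± 0.09. Ppp1r15a, a phosphatase subunit that reverses eIF2-alpha phosphorylation, was at 7.89 and 7.78 CPM at 0h and 9.16 and 7 CPM at 6h, and at 20.3 and 22.3 CPM at 12h (2.66-fold, adjusted p = 6.2e-13).

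Chac1 (chr2:119350992-119351241, plus strand) and Pck2 (chr14:55540016-55540265, plus strand) show the composite site read by ATF4 with C/EBP partners, TGATGNAA, in capitals, as its reverse complement, starting 193 and 103 bases before the RefSeq start (build GRCm38.p6, 250 bases before the start). The letters were found in 31.4% of the 35 tested members of the list that have a promoter sequence, and in 2.33% of all tested promoters. The list was made of ATF4 targets and regulators, so this difference can follow from the choice of genes and does not bear on the timing. In the classes taken from the data the share was 3.38% in upward starts and 3.52% in upward continuations. It was 2.39% in downward starts and 2.35% in downward continuations, and these differences were not tested.
Chac1: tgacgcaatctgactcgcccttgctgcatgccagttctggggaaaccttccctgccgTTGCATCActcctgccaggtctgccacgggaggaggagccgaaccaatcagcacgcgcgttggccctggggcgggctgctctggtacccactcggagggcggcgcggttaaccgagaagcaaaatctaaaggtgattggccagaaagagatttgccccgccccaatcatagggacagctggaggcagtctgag
Pck2: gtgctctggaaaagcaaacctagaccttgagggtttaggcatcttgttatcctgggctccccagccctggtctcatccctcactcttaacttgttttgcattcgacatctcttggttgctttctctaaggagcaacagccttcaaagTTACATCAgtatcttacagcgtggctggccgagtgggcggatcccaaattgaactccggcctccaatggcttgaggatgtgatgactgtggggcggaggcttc

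In the list of ER unfolded protein response genes 10 of 28 fell, 3 rose and 15 were not called (median -0.09), and 9 of the 10 were continuations. Calr, a calcium-binding chaperone, fell by 0.32 after a first fall by 0.34. Hspa5, the ER HSP70, fell by 0.18 after 0.42. Dnajb9, a cochaperone of HSPA5, was among the 3 that rose (0.28 ± 0.07), with Derl3 (1.27) and Atf6 (0.16). The Derl3 and Atf6 calls were lost when single libraries were left out, as listed below. Of 24 heat shock and cytosolic chaperone genes 9 fell and 1, Hspa4l, rose by 0.27 (a call lost without 12h replicate 1). The numbers that fell were 3 in each list without 12h replicate 2, and the calls of Hspa5 and Dnajb9 were lost with them.

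Of the lists examined, sterol synthesis held the most returns. The lists were chosen with earlier results of these data known, and a chance deviation of the shared 6h libraries favours returns. Over all 14263 tested genes 69 were upward returns. Of 25 tested genes of cholesterol synthesis and SREBP2 targets 18 rose from 6h to 12h and 1 fell, and 16 of the 18 had fallen by 6h. The list's median was -0.25 in the first step and 0.29 in the second. Fdft1, squalene synthase, was at 47 and 48.1 CPM at 0h, 36.1 and 39.4 CPM at 6h, and 56.2 and 63.1 CPM at 12h (log2 fold change 0.66 ± 0.06, adjusted p = 5.9e-10). Mvd, which makes isopentenyl diphosphate, went from 52.2 and 51.3 CPM to 42.3 and 44.4 CPM and on to 62 and 65.5 CPM. Both ended above their 0h libraries. Others came back to about where they began: Insig1, the sterol-regulated retention protein of SREBP, was at 156 and 154, 111 and 111, then 148 and 144 CPM, and was not called at 12h against 0h. Cyp51, a sterol demethylase, ran 147 and 145, 116 and 108, then 147 and 147 CPM.

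Hmgcs1, an early synthase of the pathway, recovered only in part, from 82.9 and 80.7 CPM at 6h to 96.7 and 101 CPM at 12h, below 110 and 108 CPM at 0h. Idi1, an isomerase of the same pathway, was the member that went on falling, by 0.30 and then 0.15, a second call (adjusted p = 0.046) that was lost under most alternatives, among them DESeq2 and the replicate block. The transcription factor gene Srebf2 was not called in the first step and rose by 0.12 ± 0.04 in the second.

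Hmgcs1 (chr13:119690101-119690350, plus strand, build GRCm38.p6, 250 bases before the RefSeq start) carries a sterol element, TCACNCCAC, 137 bases before the start, in capitals. Hmgcs1, shown for this match, is 1 of 17 list members with a promoter sequence and the 1 among them that holds these letters, which 1.11% of all tested promoters hold. Among upward returns 2 of 46 promoters held these letters (4.35%), and among downward returns 0 of 36. The shares were 2.06% in upward starts, 0.813% in upward continuations, 0.716% in downward starts and 0.784% in downward continuations. These differences were not tested.
Hmgcs1: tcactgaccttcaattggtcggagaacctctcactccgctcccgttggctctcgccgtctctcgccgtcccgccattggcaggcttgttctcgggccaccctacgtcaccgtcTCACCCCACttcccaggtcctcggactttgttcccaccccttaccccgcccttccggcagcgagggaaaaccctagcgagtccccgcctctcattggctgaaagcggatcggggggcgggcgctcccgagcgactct

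Genes of fatty acid desaturation returned as well. Scd1, a stearoyl-CoA desaturase, was at 14.5 and 13.3 CPM at 0h, 8.26 and 10.3 CPM at 6h and 21.3 and 19.7 CPM at 12h (2.2-fold, adjusted p = 1.3e-10), with no overlap between any 2 of these times. Scd2, its more abundant relative, was at 1042 and 1044, 935 and 938, then 1393 and 1377 CPM. In the list of fatty acid synthesis and desaturation genes 9 of 20 rose and none fell (median 0.16; 6 rose without 6h replicate 2), and 5 were returns. Fasn, fatty acid synthase, was not called in either step (0.04 ± 0.04 in the second). Outside lipid genes, the chemokine gene Ccl3 fell from 18.1 and 16.2 CPM to 10.4 and 10.3 CPM and rose to 18.4 and 19.1 CPM. Rpph1, the RNA of RNase P, fell to 7.45 and 6.92 CPM and rose to 14.6 and 16.2 CPM.

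**Figure D3:**
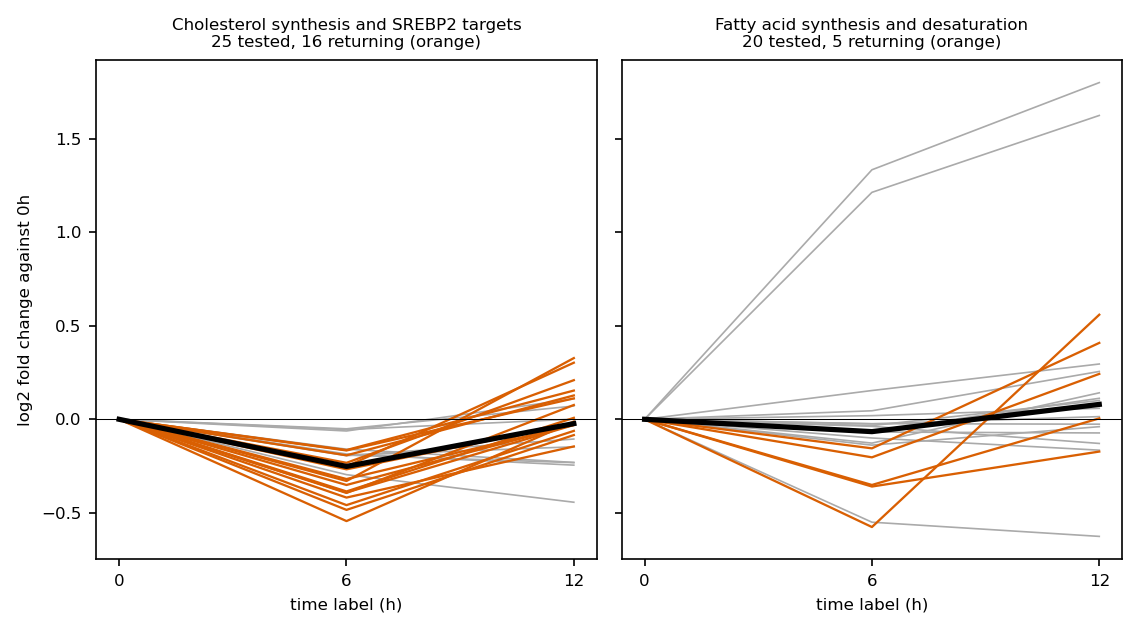
Log2 fold change against 0h (y axis) by time label in hours (x axis) for the tested members of the cholesterol list (left) and the fatty acid list (right); each thin line is a gene, orange where it fell by 6h and rose from 6h to 12h, and the thick black line is the median. In the cholesterol list 16 of 25 genes are orange, and the median dips at 6h and lies near 0 at 12h.

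Downward returns other than Klf4 were few and modest. Socs1, an inhibitor of cytokine signalling, was at 8.85 and 8.79 CPM at 0h, 11.1 and 11.7 CPM at 6h and 8.58 and 6.56 CPM at 12h. The nuclear RNA Neat1 went from 72.8 and 64.3 CPM to 105 and 96.6 CPM and back to 72.6 and 75.7 CPM. Pirb, an inhibitory receptor of myeloid cells, fell by 0.50 ± 0.10, Rars2 by 0.39 ± 0.06 and Dffb by 0.31 ± 0.07 on the log2 scale, and none of these 5 was called at 12h against 0h.

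Genes that make ribosomes fell together from 6h to 12h, after a smaller first step (median -0.08, with 11 called lower by 6h). A start means only that the first step was not called. Of 59 tested genes of ribosome biogenesis, many of them known MYC targets, 47 fell from 6h to 12h and none rose (median -0.19), and 39 of the 47 were starts. Without 12h replicate 2 the number was 29. Ncl, nucleolin, was at 2053 and 2074 CPM at 0h and 2005 and 1904 CPM at 6h, and at 1596 and 1520 CPM at 12h (log2 fold change -0.33 ± 0.04, adjusted p = 5.2e-07). Utp20, of the small subunit processome, went from 155 and 151 CPM to 124 and 120 CPM, and Mybbp1a, a nucleolar cofactor, from 634 and 670 CPM to 528 and 523 CPM. Nop2, an rRNA methyltransferase, fell by 0.27 ± 0.04. In each of these the 12h libraries lay below all 0h and 6h libraries. Myc itself was not called between 0h (252 and 267 CPM) and 6h (257 and 256 CPM), then stood at 218 and 214 CPM (log2 fold change -0.25 ± 0.04, adjusted p = 3.9e-05), and at 243 and 252 CPM at 24h.

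Nop2 (chr6:125131633-125131882, plus strand, build GRCm38.p6, 250 bases before the RefSeq start) holds an E-box, CACGTG, the site read by MYC with MAX, 60 bases before the start, in capitals. The E-box was found in 26.4% of the 53 ribosome biogenesis genes with a promoter sequence, in 14.2% of downward starts and in 10.3% of all tested promoters. Many genes of the list are known MYC targets, so its share can follow from the choice of genes, and the downward starts include members of it. The share was 11.8% in downward continuations, 9.25% in upward starts and 5.69% in upward continuations, and these differences were not tested.
Nop2: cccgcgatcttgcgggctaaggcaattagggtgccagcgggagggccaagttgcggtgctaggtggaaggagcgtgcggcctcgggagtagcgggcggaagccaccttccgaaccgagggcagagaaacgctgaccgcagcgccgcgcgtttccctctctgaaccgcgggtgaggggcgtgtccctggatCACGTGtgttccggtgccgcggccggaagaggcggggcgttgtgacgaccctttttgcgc

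Fewer structural ribosome and respiratory genes were called, and their counts depend on which 6h library is used. By 6h 39 of 57 cytosolic ribosomal protein, 20 of 48 mitochondrial ribosome and 22 of 56 nuclear oxidative phosphorylation genes had already fallen. Over all tested genes 8.58% had, and these calls use the same 6h libraries. From 6h to 12h 5 of the 57 cytosolic ribosomal protein genes fell, near the 9.79% of all tested genes called lower, and none rose (median -0.06). The 5 that fell were Rpl6, Rpl7, Rpl7a, Rpl29 and Rps4x. Without 6h replicate 1 the number was 38, and without 6h replicate 2 none fell and 3 rose. Of 48 mitochondrial ribosome genes 18 fell (median -0.13), and 6 without 6h replicate 2. Of 56 nuclear genes of oxidative phosphorylation 11 fell (median -0.08), 28 without 6h replicate 1, and 3 without 6h replicate 2, when 3 others rose. Of 31 NRF2 and thioredoxin antioxidant genes 13 fell and 1, the ATF4 target Slc7a11, rose (median -0.12), and 3 fell without 12h replicate 2. Mt1, a metallothionein, started to fall after 6h, from 236 and 263 CPM to 181 and 170 CPM.

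Of 62 tested mitosis genes 32 rose from 6h to 12h and none fell (median 0.15), 27 of them starts, and 21 rose without 12h replicate 2. Foxm1, a transcription factor of the G2-M programme, was at 59.9 and 61 CPM at 0h and 64.4 and 64.4 CPM at 6h, and at 87.5 and 92.5 CPM at 12h (1.4-fold, adjusted p = 4.4e-09). Kif23, a kinesin of cytokinesis, rose from 51.6 and 52 CPM to 69.5 and 67.8 CPM, Nusap1, a spindle protein, by 0.35 ± 0.05, and Racgap1, another component of the central spindle, by 0.31 ± 0.04. Of 48 genes of G1-S and replication 6 rose and none fell, with a median of 0.01, a share near the 10.9% of all tested genes called higher. Without 12h replicate 1 the number that rose was 3, without 6h replicate 1 there were 2 that fell, and the GC and length correction with the mean gene centred gave 5 each way. The difference between the lists was not tested. In bulk RNA a larger share of cells in mitosis and more of these transcripts per cell cannot be told apart. Hist1h1c, a linker histone gene, also started, from 12.4 and 11.8 CPM to 25.4 and 24.1 CPM.

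**Figure D4:**
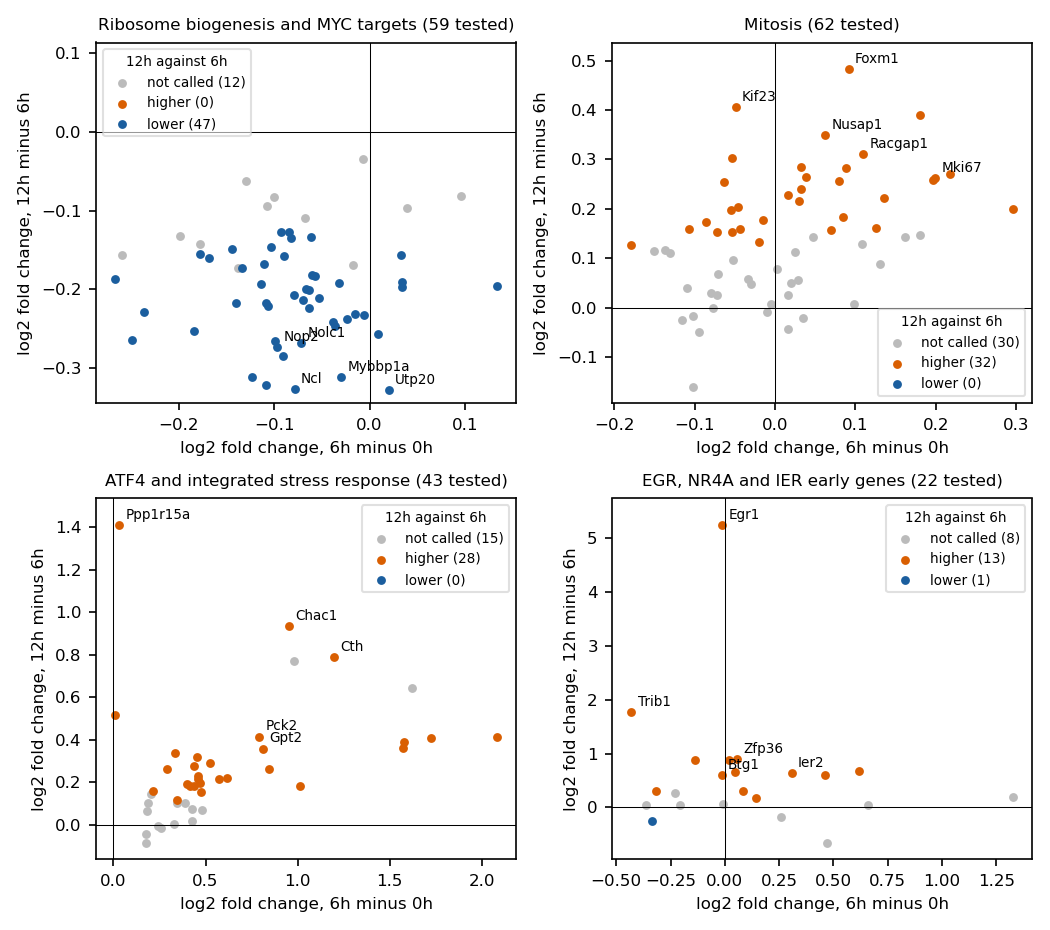
Log2 fold change of the first step, 6h minus 0h (x axis), and of the second, 12h minus 6h (y axis), for the tested members of 4 gene lists; points are genes, orange if called higher, blue if called lower and grey if not called from 6h to 12h. The ribosome biogenesis genes all lie below 0 on the y axis, 32 mitosis genes are orange, the ATF4 genes lie to the right of 0 on the x axis, and Egr1 lies at 5.25 on the y axis.

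Some cytoskeletal and adhesion genes also continued upward. In the list of S100 genes, annexins and actin regulators 13 of 44 rose and 7 fell (median 0.05), and 12 of the 13 were continuations. Without 12h replicate 2 there was 1 that fell, and under the GC and length correction with the mean gene centred the balance turned, with 11 higher and 15 lower. Lsp1, a leukocyte F-actin binding protein, was at 1.21 and 1.38 CPM at 0h, 10.1 and 9.01 CPM at 6h, 23.5 and 25.1 CPM at 12h and 43.8 and 43.2 CPM at 24h. S100a6, a calcium-binding protein, ran 1.31 and 1.24, 9.54 and 10.6, then 21.2 and 20.6 CPM (2.06-fold from 6h to 12h, adjusted p = 1.4e-10). Anxa1, an annexin, rose by 0.72 ± 0.06 and S100a10 by 0.57 ± 0.05. Among those that fell were Actb (by 0.14) and Actg1 (by 0.18). Ahnak, a large scaffold protein, shows a rise that was nearly complete by 6h: 83.4 and 76.3 CPM at 6h and 93.2 and 92.6 CPM at 12h.

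Of 25 integrin and adhesion genes 7 rose and 2, Icam1 and Icam2, fell (median 0.06; 4 rose without 12h replicate 2), and 6 of the 7 were continuations. Itgb7, an integrin subunit, went from 56.4 and 59.5 CPM to 131 and 138 CPM and on to 217 and 227 CPM (1.65-fold, adjusted p = 3.8e-15). Amigo2, a cell adhesion molecule, went from 14.9 and 15.7 CPM to 29.6 and 27.2 CPM. Osm, the cytokine oncostatin M, continued upward, from 31.4 and 32.6 CPM to 68.4 and 73.5 CPM (log2 steps 0.48 and 1.15). The long noncoding RNA Miat was at 0 and 0.46 CPM at 0h, 24.9 and 19.5 CPM at 6h and 47.1 and 55.5 CPM at 12h. Igf2, insulin-like growth factor 2, was seen with 1 count at 0h and went from 5.73 and 5.31 CPM at 6h to 13.8 and 16 CPM at 12h.

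Lineage genes changed in a few members. Ly6g, a surface protein of neutrophils, was at 3.37 and 3.82 CPM at 0h, 4.77 and 6.02 CPM at 6h, 18.6 and 19.2 CPM at 12h and 38.6 and 39.2 CPM at 24h, a 3.47-fold rise in the second step (adjusted p = 3.8e-15). It was 1 of 3 late neutrophil granule genes that rose among 18 (median 0.13), with Padi4 (0.45) and Ngp (0.19, a call lost without 6h replicate 1 or 12h replicate 1), and none fell. Of 13 primary granule genes 6 fell and 1, Nkg7, rose by 0.70 (median -0.17). Those that fell include Calr, the chaperone gene that is also counted in the ER list above. Ms4a3, a marker of granulocyte-monocyte progenitors, continued downward from 110 and 114 CPM to 72.6 and 68.9 CPM, after 138 and 137 CPM at 0h. The protease genes Elane and Prtn3 fell by 0.29 and 0.28 on the log2 scale. Monocyte and macrophage genes were called 3 each way among 26, near the 10.9% higher and 9.79% lower of all tested genes. Under the mean-centred correction 2 were higher and 4 lower. Vcan (0.55), Apoe (0.44) and Lgals3 (0.36) rose, and Fcgr3, Emb and Adgre1 fell by 0.21, 0.20 and 0.19. Cd34, a progenitor surface protein, fell from 186 and 188 CPM to 153 and 146 CPM, as it had by 6h.

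In the MLL-AF9 programme 6 of 24 genes rose and 1, Mef2c, fell by 0.21 (median 0.06), but under the GC and length correction with the mean gene centred the balance turned, with 5 higher and 9 lower. Mef2c was not called without 6h replicate 1 or either 12h library, and 4 genes fell without 6h replicate 2. Hoxa2 started from 1.43 and 1.22 CPM at 6h and stood at 5.22 and 5.77 CPM at 12h (4.16-fold, adjusted p = 1e-09). Hoxa5 rose by 0.30 ± 0.05 and Hoxa6 by 0.41 ± 0.07. Hoxa9, a main target of the fusion protein, rose by 0.12 ± 0.04, a call lost without 6h replicate 2 or either 12h library and under the GC and length correction that centres the mean gene. Meis1, its partner, was not called (-0.11 ± 0.05, adjusted p = 0.076). Of 32 interferon-stimulated genes 2, Gbp3 and Eif2ak2, fell and none rose, and neither was called without 12h replicate 2. Of 26 genes of p53 and its targets 6 fell, Trp53 itself by 0.18, and 3 rose, Ddb2 (0.75), Gadd45a (0.67) and Mdm4 (0.14).

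**Figure D5:**
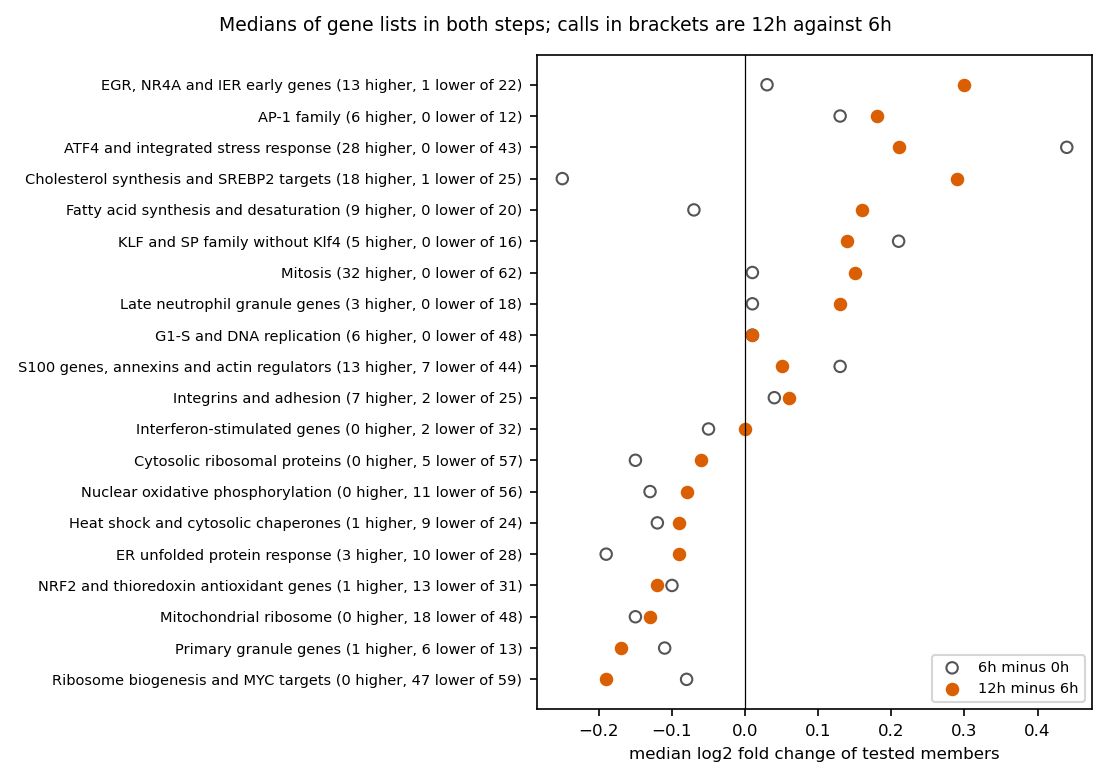
Median log2 fold change of the tested members (x axis) of 20 gene lists (y axis), open circles for 6h minus 0h and orange for 12h minus 6h, with the numbers called from 6h to 12h in brackets; both steps use the same 6h libraries. The cholesterol list lies at -0.25 in the first step and 0.29 in the second, and the ribosome biogenesis list at -0.08 and -0.19.

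Among downward starts above the expression limit for naming genes, Rn7sk and Zbtb26 had the largest falls. Zbtb26, a zinc finger gene, went from 13.2 and 10.2 CPM to 5.51 and 6.02 CPM (a 2.01-fold fall, adjusted p = 6.5e-07). Tcta fell by 0.62 ± 0.12, the SOX factor gene Sox13 by 0.60 ± 0.13 and the metalloprotease gene Adam8 by 0.50 ± 0.06. Rn7sk, the RNA that holds P-TEFb inactive, was at 12.8 and 15.3 CPM at 6h and 11.2 and 2.76 CPM at 12h, so its value of -1.02 rests on 12h replicate 2. Among continuations, Dnmt3l, a cofactor of DNA methyltransferases, had a log2 fold change of -0.43 ± 0.09, Tnfsf14, which encodes a TNF family cytokine, -0.43 ± 0.09, and Gria3, an AMPA receptor subunit gene, -0.42 ± 0.09. Mroh2a, by contrast, started upward from 9.5 and 9.24 CPM to 24.4 and 24.9 CPM.

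Tested against a fold of 1.5 in place of no change, 84 genes were higher at 12h and 1 was lower. Egr1, Jun, Fosb, Fos, Klf2, Klf6, Zfp36, Trib1, Dusp1, Nfkbiz, Ppp1r15a, Chac1, Scd1, Ly6g, Lsp1, S100a6, Osm, Miat, Igf2, Amigo2, Hoxa2, Mroh2a and Hist1h1c were among the 84, while no gene of the cholesterol, ribosome biogenesis or mitosis lists was, and 2 of the ATF4 list were. Several calls, of small and of larger steps, rested on single libraries. Without 12h replicate 2 the calls of Atf4, Srebf2, Csrnp1, Sp3, Atf6, Derl3, Ccl6, Actb, Actg1, Apoe, Fcgr3, Adgre1, Ddb2, Mdm4, Cxcl2, Rn7sk and all 5 ribosomal protein genes were lost. Without 12h replicate 1 those of Srebf2, Sp3, Atf6, Derl3, Adgre1, Mdm4, Cxcl2, Rpl7, Rpl7a and Rps4x were lost. Without 6h replicate 1 those of Atf4, Srebf2, Derl3, Adgre1 and Cxcl2 were lost, and without 6h replicate 2 those of Sp3, Atf6, Derl3, Icam1, Actb, Ahnak, Apoe, Mdm4, Cxcl2 and the 5 ribosomal protein genes. Genes with close copies, such as Ly6g, Hist1h1c, Scd1 and Scd2, may share or have lost reads in the authors' counting.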

How the data were processed

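Gene counts per library, as the authors deposited them without normalization, were used for all 8 libraries. Per the labels' protocols, libraries for paired-end reads were prepared with a TruSeq kit from RNeasy-purified total RNA. Per the submitters' processing notes, STAR, SAMtools 1.3, HTSeq 2.0.3 and build mm10 were used; strand setting and annotation release: not given in the sources used here. The 5 summary rows were left out (no-feature rows held 5.25% to 9.27% of fragments). Names came from GENCODE M21, with 46574 of 47069 IDs matched. Genes kept by filterByExpr were tested with edgeR 4.0.16 in R 4.3.3: TMM scaling, 1 quasi-likelihood fit of all libraries with a mean for each time, two-sided, Benjamini-Hochberg adjusted over 14263 genes. The SE is the log2 fold change divided by the square root of F, and the pipeline was tested on simulated data. CPM are TMM-scaled. Replicate numbers were not used to pair libraries. Genes named were Klf4, the 8 largest starts, 6 continuations and 6 returns each way with separated libraries and an average log2 CPM of 3 or more (or 4 or more at 1 time), without predicted models, and up to 4 members of each list with the smallest adjusted p. Other list members, among them Hmgcs1, Idi1, Atf4, Trib3 and Btg1, were named for their role or to account for small counts after their values were seen. The members and the lists were chosen with earlier results of these data known. Alternatives were DESeq2 1.42.0, other scaling and filters, a replicate block, the 4 libraries alone, a test against a fold of 1.5, GC and length corrections, thinning and leaving out each library. Results for some genes are not reported here.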

Additional observations from a re-analysis of the deposited data

Results flagged for a closer look

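Data outside the gene counts held a signal above the 0h libraries: the share of fragments counted to no gene was 8.63% ± 0.45 (SD, n = 2) at 12h, against 5.47% ± 0.32 at 0h and 6.21% ± 0.56 at 6h.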

How the results depend on the processing

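Of 167 named genes called here, 144 of 165 testable kept the call in DESeq2, 25 of 167 in the test against a fold of 1.5, and 127 to 166 when 1 library was left out. No named gene that was called reversed its direction; mt-Nd6, which was not called, read -0.14 under the GC and length correction with the mean gene centred. The deviations of same-numbered libraries correlated with r from -0.174 (6h and 24h) to 0.188 (0h and 6h) over the 6 pairs of times, and with r = -0.006 between 6h and 12h, so the numbers were not taken as pairs. With the replicate number as a block 2812 genes were called (1491 higher, 1321 lower), and the class counts stayed within 1.5 times; 2 named genes, Cd79a and Per2, lost their call. DESeq2 called 1485 (739 higher, 746 lower; at least 2-fold 120 and 4), with 474 and 565 starts, 232 and 166 continuations and 33 and 15 returns, upward first. The test against a fold of 1.5 called 85 (84 and 1; at least 2-fold 76 and 1), with 66 and 1 starts, 18 and 0 continuations and 0 and 0 returns. The stricter filter left 69 and 4 genes at 2-fold. The GC and length correction gave 104 upward returns. With the mean gene centred it gave 2856 lower genes, 58 of them 2-fold lower, 266 and 1365 continuations and 126 upward returns. There ribosome biogenesis had 55 lower and 0 higher, mitosis 27 higher and 0 lower, ATF4 targets 21 and 2, and cholesterol genes 16 and 2, while the balance turned from more higher to more lower in the MLL-AF9 programme (5 higher, 9 lower), S100 genes, annexins and actin regulators (11, 15), glycolysis (7, 12), myeloid transcription factors (8, 9), CDK inhibitors and D cyclins (1, 4), NF-kB targets (5, 6) and myeloid leukaemia markers (0, 4). A threshold of 0.20 for the 6h call gave 129 and 92 returns and 514 downward continuations. Requiring both steps at 1.2-fold gave 255 and 27 continuations, 34 and 17 returns and 383 downward starts. Leaving out 1 library at a time gave 1296 to 3061 called genes, 771 to 1569 higher and 525 to 1492 lower, 191 to 348 at 2-fold higher and 21 to 33 at 2-fold lower, 449 to 1127 upward and 395 to 1192 downward starts, 279 to 470 upward and 114 to 359 downward continuations, and 41 to 95 upward and 16 to 75 downward returns. The lowest counts mostly came without 12h replicate 2; the highest numbers of returns came without 6h replicate 2, and downward continuations fell to 122 without 0h replicate 2. Where this left a single library at a time, its spread was taken from the other times. The causes were not tested. Depth limits genes under about 1 CPM.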
